A study of Mus musculus with 6 samples.

Results

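Mir341, Mir1188 and Mir370 are the miRNA genes that lie inside Rian, a long noncoding RNA gene of the imprinted Dlk1-Dio3 region on mouse chromosome 12. They were taken from the count table by name, which gave 3 of its 1155 rows, and all 3 passed the filter on low counts. The libraries hold small RNA from mouse embryonic fibroblasts, connective tissue cells cultured from embryos. Wild-type (WT) cells gave 3 libraries and cells with the Fbxw7 gene knocked out (Fbxw7 KO) gave 3, all grown in the same serum-containing medium without any treatment named. FBXW7 is the subunit of an SCF ubiquitin ligase that picks proteins such as Myc, cyclin E, Jun and Notch for destruction. The labels give no embryonic age, strain, knockout method, or number of embryos or cell lines behind the libraries, so a p-value here refers to the variation among these 6 samples, part or all of which may be technical.

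In the Dlk1-Dio3 region the protein-coding genes Dlk1, Rtl1 and Dio3 are expressed from the paternal chromosome, and the noncoding genes Meg3, Rian and Mirg from the maternal one. The noncoding genes run in the same direction, one after another, and are the source of many miRNAs and C/D box snoRNAs of the region. A miRNA is cut from a folded precursor, the hairpin, and pairs with target transcripts mainly through its seed, bases 2 to 8. Rian, also known as Meg8, is best known as a host of snoRNAs, and GENCODE M21 places 13 snoRNA genes within it. miR-370 is found in human as well as mouse and has been studied in lipid metabolism and in tumours, whereas miR-341 is known from rodents.

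In the count table Mir341 spans chr12:109611500-109611595, Mir1188 chr12:109611822-109611941 and Mir370 chr12:109618258-109618336, all on the plus strand of mm10. GENCODE M21, an annotation of the same build, gives the 3 genes the same coordinates and strand. Rian runs from 109603940 to 109661716 on the plus strand, so Mir341 starts 7560 bases, Mir1188 7882 bases and Mir370 14318 bases after its start. Each hairpin is intronic in the Rian transcripts that span it, 2 of the 20 annotated. Of the Rian transcripts 0 have an exon over it, and no exon of another gene lies there. Mir341 and Mir1188 are 226 bases apart, and 6316 bases separate Mir1188 from Mir370.

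The RefSeq sequences (GRCm38.p6, all 3 genes matched) are shown because each count is the sum of reads over a whole hairpin, both arms together. In the hairpins, read 5′ to 3′, the 2 mature miRNAs of each gene are in capitals.
Mir341: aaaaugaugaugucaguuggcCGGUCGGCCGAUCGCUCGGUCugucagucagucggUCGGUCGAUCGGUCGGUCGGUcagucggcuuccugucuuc
Mir1188: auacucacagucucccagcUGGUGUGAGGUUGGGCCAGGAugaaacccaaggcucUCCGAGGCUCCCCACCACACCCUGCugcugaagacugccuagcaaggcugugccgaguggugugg
Mir370: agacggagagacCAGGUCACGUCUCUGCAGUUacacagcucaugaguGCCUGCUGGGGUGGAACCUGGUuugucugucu

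The mature miRNAs follow with the seed in capitals, to show which seeds are shared.
miR-341-5p: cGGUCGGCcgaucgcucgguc
miR-341-3p: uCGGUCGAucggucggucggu
miR-1188-5p: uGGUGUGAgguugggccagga
miR-1188-3p: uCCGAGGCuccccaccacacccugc
miR-370-5p: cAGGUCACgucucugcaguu
miR-370-3p: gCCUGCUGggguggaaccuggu

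The 3 hairpins are neighbours without being sequence relatives. The longest stretch any of them shares with another of the 3 is 7 bases, and the 6 seeds all differ. No stretch of 12 bases in Mir341, Mir1188 or Mir370 occurs in any other of the 1005 mouse hairpins of the RefSeq table, and the rows overlap no other row of the count table. Mir341 stands out by its repeats: the letters GGUC, searched on the hairpin strand and counted with overlaps, occur 7 times, and no other hairpin of the table reaches that number. Its hairpin also has 12 CG steps, against 2 in Mir1188, 2 in Mir370 and a median of 1 over all hairpins. The highest number in any hairpin was 20, and 18 hairpins have more CG steps per 100 bases than Mir341. The folded hairpins have similar predicted minimum free energies, −42.0 kcal/mol for Mir341, −42.2 for Mir1188 and −41.3 for Mir370 (RNAfold).

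Of the 1738 mature mouse miRNAs in the RefSeq table, none outside the 3 genes shares the seed of either miR-341 arm, either miR-1188 arm or miR-370-3p. The seed of miR-370-5p recurs once, in miR-1193-3p, whose gene Mir1193 lies in the same imprinted region. The partner sequence is shown with its seed in capitals, for comparison with miR-370-5p above.
miR-1193-3p: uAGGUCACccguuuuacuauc

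The libraries held 3707576 to 5019700 counts in WT and 2932439 to 3753353 in Fbxw7 KO. Of the 1155 rows, 283 could be tested, and 72 of these (25.4%) differed between genotypes at an adjusted p under 0.05 (edgeR quasi-likelihood test). Lower in Fbxw7 KO were 29 rows (10.2%), and higher were 43 (15.2%). The share that differed dropped to 14.6% without WT replicate 1 and to 12.2% without WT replicate 2. It dropped to 16.8% without Fbxw7 KO replicate 1 and to 11.9% without Fbxw7 KO replicate 2. Without WT replicate 3 it was 23.0%, and without Fbxw7 KO replicate 3 it was 27.2%. The first principal component separated the genotypes, and the second set Fbxw7 KO replicate 3 apart from replicates 1 and 2 (scores −6.45, 2.9 and 3.55). As a check of the cell type, 9 rows of a fibroblast and mesenchymal miRNA list, with Mir21a and Mir10a among them, held 34.4% to 37.3% of counts in WT and 36.7% to 40.2% in Fbxw7 KO, with Mir22 at 0. Of the 7 that could be tested, 1 was lower and 2 were higher in Fbxw7 KO, and the lower one was Mir10a (log2 fold change −0.89, SE 0.131, edgeR adjusted p = 0.00179). Rows of the muscle list held at most 0.0405% of counts in any library, epithelial rows at most 0.00618%, and blood cell, neuronal, endothelial and pluripotent cell rows at most 0.000438% each. Several of these shares are no measure of the cells. Besides Mir22, the rows at 0 counts were Mir1a-1, Mir1a-2, Mir133a-1, Mir133a-2, Mir142, Mir9-1, Mir124a-1, Mir124a-2, Mir126a, Mir295 and Mir302a to Mir302d. Of these 15 rows, 7 overlap another row and 1, Mir9-1, has a mature miRNA identical to that of other genes. Reads over 2 rows or with several alignments are left out in counting by default. Neither was found for the other 7 rows, but Mir1a-2, Mir133a-1 and Mir133a-2 were missing from the sequences compared. Copies of miR-1 and miR-133a could thus not be checked. Why any of the 15 rows stood at 0 was not tested. The part of other cell types in the differences below was not tested.

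Mir341 and Mir370 were lower in Fbxw7 KO fibroblasts, and the scarce Mir1188 was lower without passing the test. Levels are given as CPM, the count relative to the library total after scaling by edgeR's TMM factor, a factor that allows for a different make-up of libraries. For all 3 rows every Fbxw7 KO library lay below every WT library, which held for 57 of the 283 tested rows (20.1%). It also held for 23 of the 38 other tested rows of the Dlk1-Dio3 region and for 31 of the 242 tested rows outside the region. In these bulk libraries, fewer cells that make a miRNA and less of it per cell cannot be told apart.

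**Figure D1:**
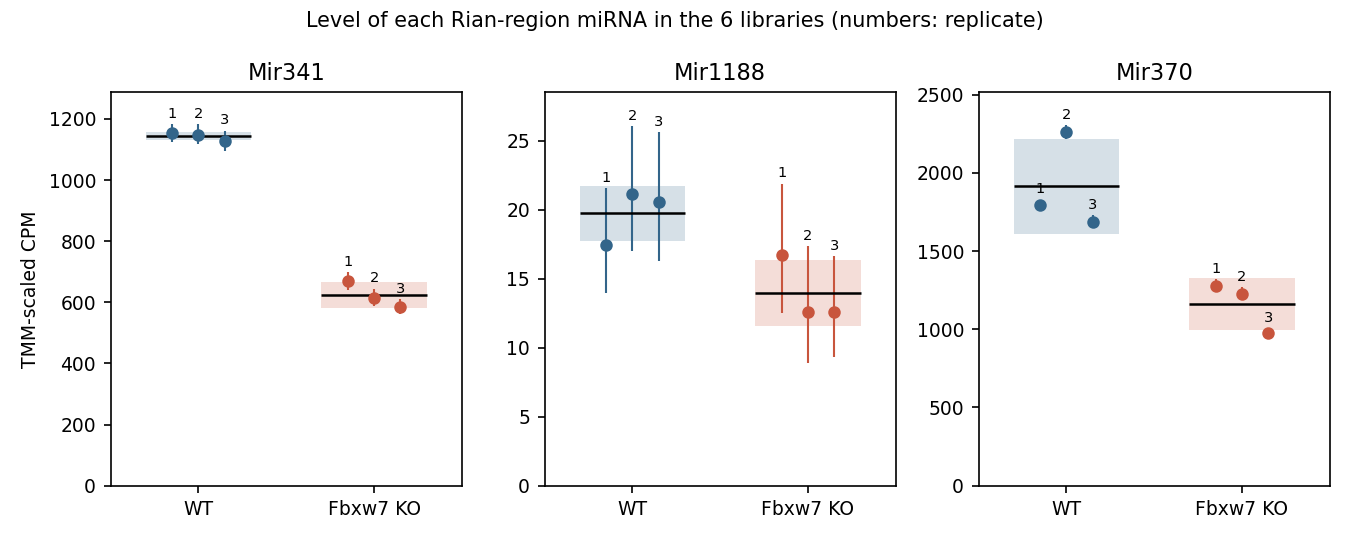
TMM-scaled CPM (vertical axes, from 0) of Mir341, Mir1188 and Mir370 in 3 WT and 3 Fbxw7 KO libraries; points are libraries numbered by replicate with 95% Poisson counting intervals, lines are group means and shaded boxes ± 1 SD. The WT libraries of Mir341 lie between 1128 and 1153 CPM, far above the 584.7 to 668.9 CPM of Fbxw7 KO, while the counting intervals of Mir1188 overlap between the genotypes.

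Mir341 had 1153, 1149 and 1128 CPM in WT replicates 1 to 3 and 668.9, 615.6 and 584.7 CPM in Fbxw7 KO replicates 1 to 3. The WT libraries were nearly equal, and the highest Fbxw7 KO library was far below the lowest of them. The means were 1143 ± 13.5 and 623 ± 42.6 CPM (SD, n = 3), so that Fbxw7 KO held 54.5% of the WT level. The log2 fold change was −0.88 (SE 0.114, 95% interval −1.13 to −0.62, edgeR adjusted p = 0.00108). Among the 283 tested rows Mir341 ranked 8th by p and 14th by size of fall. These means rest on 14919 reads in WT and 6214 in Fbxw7 KO, over 3 libraries each. For a single library, counting alone gives a coefficient of variation of 1.43% in WT and 2.21% in Fbxw7 KO. The observed coefficient of variation of Mir341 in WT was 1.18% on the TMM scale, 3.45% in the deposited FPKM and 5.24% as a share of all counts, so the closeness of the WT libraries depends on the scale, whereas the gap between genotypes was present on all 3.

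Mir370 was the most abundant of the 3. Its WT replicates 1 to 3 had 1792, 2261 and 1689 CPM and its Fbxw7 KO replicates 1280, 1228 and 973.8 CPM. WT replicate 2 was the highest and Fbxw7 KO replicate 3 the lowest, and the genotypes did not overlap. The mean of WT was 1914 ± 305 CPM and that of Fbxw7 KO 1161 ± 164 CPM (SD, n = 3), with Fbxw7 KO at 60.6% of WT in the fit. The log2 fold change was −0.72 (SE 0.163, 95% interval −1.09 to −0.35, edgeR adjusted p = 0.0153). The call ended without WT replicate 2, the highest library (log2 fold change −0.57, edgeR adjusted p = 0.0602). Mir370 had 24934 reads in WT and 11474 in Fbxw7 KO, over 3 libraries each. For a single library, counting gives a coefficient of variation of 1.11% and 1.62%, well under the observed 15.9% and 14.1%.

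Mir1188 was the least abundant of the 3, at rank 203 of the 283 tested rows by mean CPM. It had 87, 89 and 79 reads in WT replicates 1 to 3 and 53, 37 and 49 in Fbxw7 KO replicates 1 to 3. This amounts to 17.5, 21.2 and 20.5 CPM for WT, and in Fbxw7 KO to 16.7, 12.6 and 12.6 CPM. Fbxw7 KO replicate 1 came close to WT replicate 1, and their 95% Poisson intervals (12.5 to 21.9 CPM and 13.98 to 21.5 CPM, counting error only) overlap almost wholly. The means were 19.7 ± 1.98 and 13.95 ± 2.40 CPM (SD, n = 3). Its log2 fold change of −0.50 had a 95% interval of −0.96 to −0.04 and did not pass once adjusted over all tested rows (edgeR adjusted p = 0.114). The observed coefficients of variation, 10.05% in WT and 17.2% in Fbxw7 KO, were close to the 10.9% and 14.9% that counting alone gives for a single library. At this depth a fall of Mir1188 as large as that of Mir341 lies within its interval, and so does one close to 0.

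Per base of hairpin the order was the same in every library. In the deposited FPKM, which divide by hairpin length, Mir370 stood at 23960 ± 3136 in WT and 14810 ± 2055 in Fbxw7 KO, Mir341 at 11820 ± 408 and 6544 ± 485, and Mir1188 at 163 ± 12.3 and 117 ± 21.4 (SD, n = 3). Mir370 was 1.82 to 2.39 times the FPKM of Mir341 in WT and 2.02 to 2.42 times in Fbxw7 KO. Mir341 was 67.9 to 82.6 times that of Mir1188 in WT and 50.0 to 61.2 times in Fbxw7 KO, although the hairpins of Mir341 and Mir1188 are the nearest neighbours. Hairpin length is a loose divisor here, since only the mature arms are expected to give many reads.

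A ratio of counts within a library needs no scaling factor, so it was used to ask whether the 3 miRNAs differed in their response. The log2 ratio of Mir370 to Mir341 was 0.64, 0.98 and 0.58 in WT replicates 1 to 3 and 0.94, 1.00 and 0.74 in Fbxw7 KO replicates 1 to 3. WT replicate 2 fell among the Fbxw7 KO libraries, and the difference of the means, 0.16, gave an exact 2-sided permutation p of 0.3. The log2 ratio of Mir1188 to Mir341 was −6.05, −5.76 and −5.78 in WT and −5.32, −5.61 and −5.54 in Fbxw7 KO. Here all Fbxw7 KO libraries lay above all WT libraries, by 0.37 in the means (exact permutation p = 0.1, the lowest value this design allows). The log2 ratio of Mir1188 to Mir370 was −6.68, −6.74 and −6.36 in WT and −6.26, −6.61 and −6.28 in Fbxw7 KO, with overlap (difference 0.21, exact permutation p = 0.2). Adjusted over these 3 pairs each exact p was 0.3. A difference in response between the 3 miRNAs was thus not shown, and with so few libraries the test could not have passed 0.05.

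**Figure D2:**
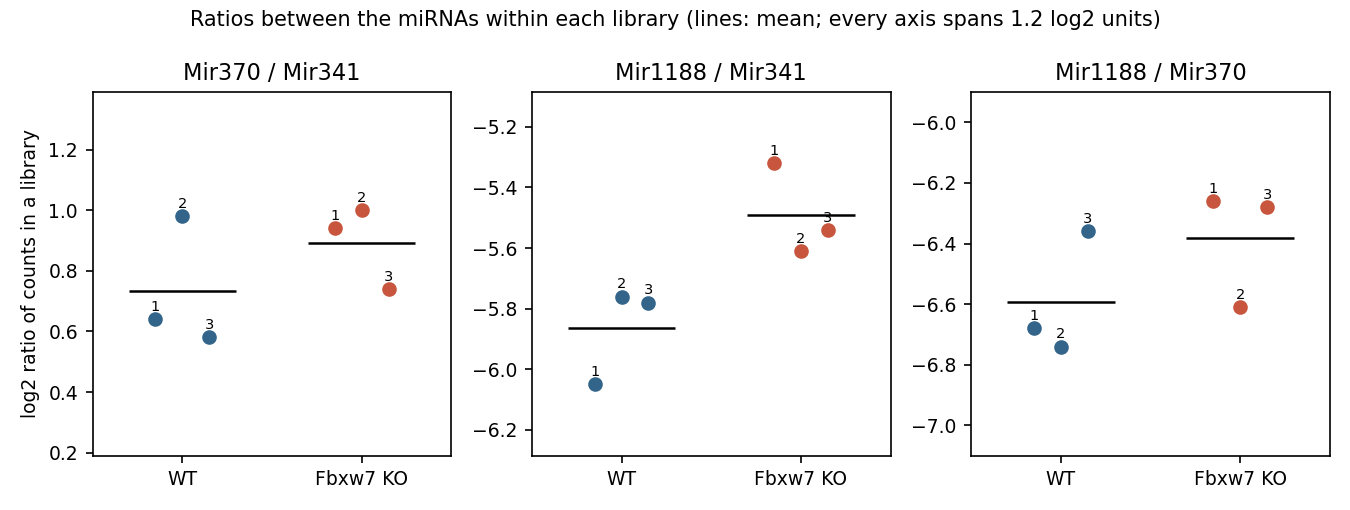
Log2 ratio of counts (vertical axes, each 1.2 units tall) for the pairs Mir370/Mir341, Mir1188/Mir341 and Mir1188/Mir370; points are libraries numbered by replicate and lines are group means. The genotypes overlap for Mir370/Mir341 and Mir1188/Mir370 and are apart for Mir1188/Mir341, where Fbxw7 KO lies between −5.61 and −5.32 and WT between −6.05 and −5.76.

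Together the 3 miRNAs made up 0.294%, 0.316% and 0.294% of all counts in WT replicates 1 to 3 and 0.198%, 0.186% and 0.163% in Fbxw7 KO replicates 1 to 3. The highest Fbxw7 KO share was below the lowest WT share. The means were 0.302% ± 0.0125 and 0.183% ± 0.0178 (SD, n = 3; exact permutation p = 0.1, the smallest possible).

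The rest of the Dlk1-Dio3 region, taken by position as the miRNA rows from the start of Meg3 to the end of Mirg, shows how the 3 sit among their neighbours. Of 57 other rows, 38 could be tested and 14 stood at 0 counts, of which 10 overlap another row, so that reads over both were left out in counting. Among the 38, 14 (36.8%) were lower in Fbxw7 KO and 0 were higher by the edgeR test, against 10.2% lower among all tested rows, and the median log2 fold change was −0.44 against 0.05 for all. All tested rows include those of the region. Of the 242 tested rows outside it, 13 (5.37%) were lower and 43 were higher, with a median of 0.13. Of 9 tested rows on the Meg3 and anti-Rtl1 side, 3 passed the test as lower and 9 had a negative log2 fold change (median −0.56). Of 29 on the Mir379 to Mir410 side, 11 passed as lower and 25 were negative (median −0.40). Among all 283 tested rows, 132 were negative. Among the 41 tested rows of the whole region Mir341 ranked 2nd by p and 6th by size of fall, Mir370 9th and 8th, and Mir1188 19th and 20th. The number of region rows that changed, 16 with Mir341 and Mir370 included, dropped to 10 without WT replicate 1 and to 8 without WT replicate 2. It dropped to 11 without Fbxw7 KO replicate 1 and to 9 without Fbxw7 KO replicate 2. Without WT replicate 3 it was 14, and without Fbxw7 KO replicate 3 it was 16.

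**Figure D3:**
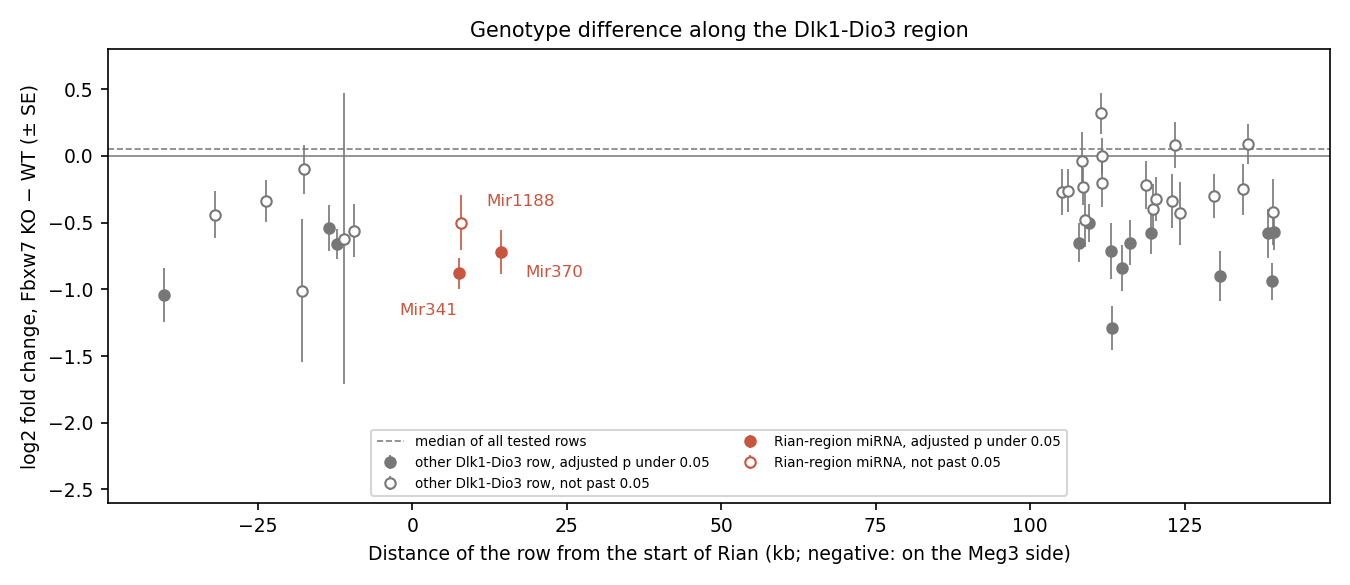
Log2 fold change, Fbxw7 KO minus WT, with its SE (vertical axis) for the 41 tested miRNA rows of the region against distance from the start of Rian in kb (horizontal axis; negative values lie on the Meg3 side); filled points have an edgeR adjusted p under 0.05, and the dashed line is the median of all 283 tested rows, 0.05. Mir341, Mir1188 and Mir370 (red) stand alone between the neighbouring groups, all below the dashed line; the tall bar on the left is Mir127 (SE 1.09).

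The nearest tested neighbours are Mir434, whose row ends 16900 bases before Mir341, and Mir379, which begins 90723 bases after Mir370. Both are far more abundant miRNAs, and neither passed the test. Mir434, made from the RNA antisense to Rtl1, had 27780, 37400 and 31520 CPM in WT and 25470, 24320 and 15600 CPM in Fbxw7 KO (log2 fold change −0.56, SE 0.2, edgeR adjusted p = 0.0738). Its genotypes did not overlap, with Fbxw7 KO replicate 3 the lowest library as for Mir370. Mir379, the first hairpin of the large downstream cluster, had 29740, 33450 and 27210 CPM in WT and 28540, 27260 and 19150 CPM in Fbxw7 KO, which overlap (−0.27, SE 0.17, adjusted p = 0.27). The lowest p-values of the region outside Rian were those of Mir543 (−1.29, SE 0.167), Mir409 (−0.94, SE 0.136) and Mir433 (−0.66, SE 0.115).

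The share that the 3 miRNAs held of all counts of the region was 1.71%, 2.03% and 2.01% in WT replicates 1 to 3 and 1.54%, 1.25% and 2.09% in Fbxw7 KO replicates 1 to 3. These overlap, since Fbxw7 KO replicate 3 is the highest of all (difference −0.292 percentage points, exact permutation p = 0.4). The denominator holds Mir127, an abundant miRNA antisense to Rtl1 that had a coefficient of variation of 50.5% in WT and 95.7% in Fbxw7 KO. With Mir127 left out, the shares were 2.44%, 2.41% and 2.35% in WT and 1.81%, 1.76% and 2.15% in Fbxw7 KO. They no longer overlapped, with means of 2.40% ± 0.0495 and 1.91% ± 0.21 (SD, n = 3; difference −0.495 percentage points, exact permutation p = 0.1, the smallest possible).

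Mir1193, the gene that shares a seed with miR-370-5p, did not pass the test between genotypes, and its difference from Mir370 was not tested. It had 343.4, 347.8 and 335.6 CPM in WT and 332.6, 383.6 and 313.3 CPM in Fbxw7 KO, so the WT libraries lay within the range of Fbxw7 KO. The log2 fold change was 0.00 (SE 0.133, 95% interval −0.30 to 0.31, edgeR adjusted p = 0.987). The sign of so small a value depends on the scaling. Because both arms of a hairpin fall into the same count, the level of miR-370-5p itself, or of miR-1193-3p, is not given by these values.

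The rows most like each of the 3 were found by Pearson's r of log2 CPM over the 6 libraries, a description that is carried largely by the step between genotypes and by scaling factors that all rows share. Mir341 was most like Mir543 (r = 0.976), Mir409 (0.975), Mir10a beside the Hoxb genes on chromosome 11, which also fell (0.973), Mir433 (0.973) and Mir345 (0.97). Of these 5, Mir543, Mir409 and Mir433 lie in the Dlk1-Dio3 region. Mir370 was most like Mir495 of the same region (0.974), followed by Mir10a (0.972), Mir183 (0.971), Mir30d (0.969) and Mir224 (0.965), all 4 outside it. Mir1188 was most like Mir6945 (0.961), a row with 53 reads in WT and 20 in Fbxw7 KO, then Mir30d (0.944), Mir543 (0.929), Mir673 (0.914) and Mir345 (0.913). The likeness is one of shape and not of size, since Mir345 had a log2 fold change of −0.18 and Mir183 of −1.76. Among themselves the 3 had r of 0.927 for Mir370 and Mir341, 0.886 for Mir1188 and Mir341, and 0.884 for Mir1188 and Mir370. With the genotype means taken out, which leaves only the spread between replicates, these were 0.658, 0.725 and 0.539. They are rough, since they rest on 6 libraries, and the spread of Mir1188 was close to what counting alone gives.

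The fall of Mir341 kept its side of the threshold in all 18 alternatives of scaling, filter, test and left-out library, and Mir370 in 17 of 18. Mir1188 passed in none of the 18, and its lowest adjusted p, 0.0583, came with TMM factors taken only from rows outside the Dlk1-Dio3 region. That scaling moved the median of all tested rows from 0.05 to −0.07 and the split of called rows from 43 higher and 29 lower to 30 and 34. Relative to the median of all tested rows, the log2 fold changes were −0.93 for Mir341, −0.55 for Mir1188 and −0.77 for Mir370 under both scalings. This sameness is fixed in advance, since another scaling factor moves all rows by nearly the same amount. It is therefore no test of the falls.

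**Figure D4:**
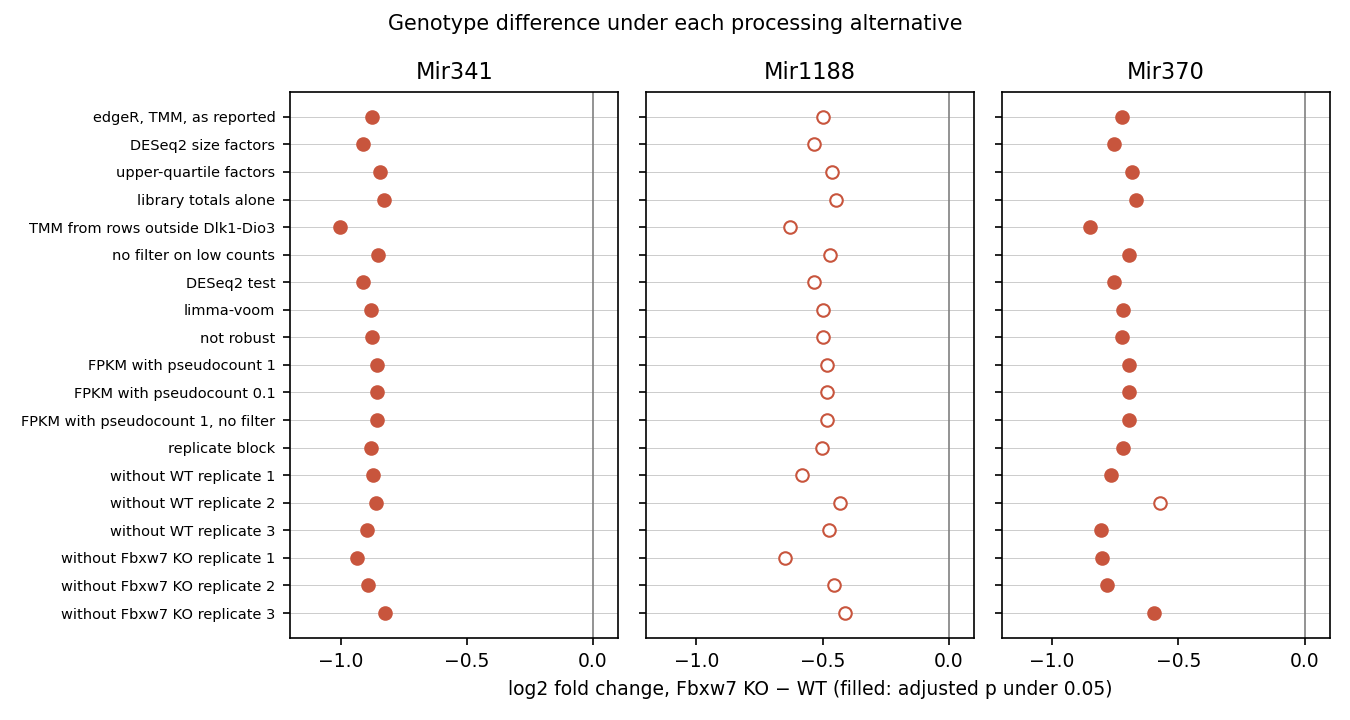
Log2 fold change, Fbxw7 KO minus WT (horizontal axes), of Mir341, Mir1188 and Mir370 under the reported fit and 18 alternatives (rows); filled points have an adjusted p under 0.05. Every point lies left of 0: Mir341 ranges from −1.003 to −0.82, Mir370 from −0.85 to −0.57 with the open point for the fit without WT replicate 2, and Mir1188, open throughout, from −0.65 to −0.41.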

How the data were processed

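Small RNA libraries were made with the Illumina TruSeq chemistry, per the labels' protocols. Per the file headers, featureCounts 1.6.4 gave the deposited counts, summed per gene name without regard to strand; reads with several alignments or over 2 rows are left out by that program's default. The submitters' processing notes name the build mm10 and, with no role, deepTools, Cufflinks 2.2.1, SAMtools 1.5 and TopHat2 2.1.1; the sources used here do not describe trimming or read length limits. The deposited FPKM equal count over length times a constant per library (relative difference at most 8.6e-15) and served for levels per length and for alternatives.

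Counts were fitted over the whole table with edgeR 4.0.16 in R 4.3.3 (TMM factors, filterByExpr with minimum count 10 and minimum total 15, robust glmQLFit, glmQLFTest, 2-sided, genotype as the only term), with Benjamini-Hochberg adjustment over the 283 tested rows, a threshold of 0.05 and the SE taken from the F statistic. In counts simulated for this comparison (277 rows tested) recovery was 15.8% of 19 rows at a 1.5-fold change, 88.9% of 9 rows at 2-fold and 91.7% of 12 rows at 4-fold. With so few changed rows these percentages are rough. Ratios and shares were compared by exact permutation over libraries, which cannot give p under 0.1 for 3 against 3. Intervals on CPM are exact Poisson intervals and cover counting error only. The miRNAs and lists were chosen with earlier results of these data known. Named besides the 3 are, by rule, the nearest tested neighbours, the 3 lowest p-values and 3 most abundant rows of the region (Mir379, Mir127 and Mir434), the 5 most alike rows for each, and seed sharers. Alternatives used DESeq2 1.42.0, limma 3.58.1, other scalings and filters, and left-out libraries. Hairpins were folded with ViennaRNA 2.7.2. The Fbxw7 transcript was not analysed here.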

Additional observations from a re-analysis of the deposited data

How the results depend on the processing

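The results compared were the log2 fold changes of Mir341, Mir1188 and Mir370, the ratios between them, their shares and the counts of changed rows. Of the fold changes, ratios and shares, 0 reversed in direction under the alternatives run. The ratio differences taken from FPKM equal those from counts by construction. The counts of changed rows have no direction to reverse, and their ranges are given below. Leaving out each library in turn, the log2 fold change ranged from −0.93 to −0.82 for Mir341, from −0.65 to −0.41 for Mir1188 and from −0.81 to −0.57 for Mir370, whose call ended without WT replicate 2 (−0.57, edgeR adjusted p = 0.0602). The count of changed rows ranged from 34 to 78 and that of Dlk1-Dio3 rows from 8 to 16, with other settings giving 48 to 76 and 11 to 17. The log2 ratio differences ranged from 0.08 to 0.28 for Mir370 to Mir341, from 0.28 to 0.43 for Mir1188 to Mir341 and from 0.14 to 0.33 for Mir1188 to Mir370. The share of the region's counts differed by −0.522 to −0.104 percentage points and that of all counts by −0.127 to −0.109.

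Whether replicate numbers pair the libraries is not settled here. The deviations of same-numbered WT and Fbxw7 KO libraries from their group means correlated at −0.0566, 0.136 and 0.157. Libraries with different numbers correlated at −0.182 to 0.152. WT replicate 1 correlated best with Fbxw7 KO replicate 2 (0.102) and WT replicate 2 with Fbxw7 KO replicate 1 (0.152, against 0.136 for the same number). WT replicate 3 correlated best with Fbxw7 KO replicate 3 (0.157). Deviations from the mean of 3 libraries sum to 0, so these few correlations cannot exclude pairing. With the replicate block, 76 rows changed in place of 72 and 17 of the region in place of 16. The replicate block gave log2 fold changes of −0.88 for Mir341, −0.50 for Mir1188 and −0.72 for Mir370 (edgeR adjusted p = 0.00107, 0.156 and 0.00522). Mir1188 had the fewest reads of the 3, 37 to 89 a library, and also the smallest fold change; which of these kept it from passing was not tested.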
